A study of Mus musculus with 10 samples.

Results

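The heat shock chaperones of the adult mouse cerebral cortex are described here as 10 listed genes, which are *Hspa1a*, *Hspa1b*, *Hspa8*, *Hspa4*, *Hsph1*, *Hsp90aa1*, *Hsp90ab1*, *Dnajb1*, *Dnaja1* and *Hspb1*. Every probe set that the platform annotation gave to a listed gene was taken, which made 22 probe sets of 9 genes among the 22626 probe sets tested. *Hsp90ab1* was not analysed here, because no probe set carried its name in the annotation used. No member probe set was shared with a gene outside the list.

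Cortical RNA came from 10 male mice at 6 months of age, 5 with the label *p97FE65* wild type and 5 with the label *p97FE65* null, and 1 array for each mouse. The null allele was made in R1 embryonic stem cells, a line from another mouse strain. It had been backcrossed to C57Bl/6J for 10 generations, and removes the full-length isoform of the adaptor protein FE65 (*Apbb1*) in every tissue. Littermate pairs were dissected, but which arrays form a pair is not given. The FE65 probe sets lie outside the deleted exon and so check nothing about the labels. In RefSeq (GRCm38.p6), none of the 10 listed genes lies on chromosome 7, which carries *Apbb1*.

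Heat shock proteins keep other proteins folded. Hsp70 proteins bind unfolded stretches of a client, J proteins deliver clients and stimulate the ATPase of Hsp70, nucleotide exchange factors release them, and Hsp90 completes the folding of kinases and steroid receptors. Heat shock factors, bound to repeats of a short element in the promoter, raise the inducible genes after heat or other protein damage, while the constitutive genes are transcribed in unstressed cells. In brain, constitutive Hsc70 (*Hspa8*) is abundant in neurons and also strips clathrin from vesicles at the synapse. The inducible genes are taken here as *Hspa1a*, *Hspa1b*, *Dnajb1*, *Hsph1*, *Hsp90aa1* and *Hspb1*, and the constitutive ones as *Hspa8*, *Hspa4* and *Dnaja1*. This division comes from general knowledge and not from these arrays, and *Dnaja1* also responds to heat.

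Hsp70 itself has a pair of inducible genes, *Hspa1a* and *Hspa1b*, next to each other on chromosome 17 and almost the same in sequence. Their promoters are shown because the probe sets of these genes were among the most variable between mice. RefSeq windows (GRCm38.p6, from 250 bases before the start to 50 after it) were searched for 2 facing units of the heat shock element, GAANNTTC or TTCNNGAA, each its own reverse complement. Of 10 listed genes, 7 matched an entry in the table, with 11 windows between them, since a gene can have several starts. A match stood in 6 of these 11 windows, which belong to 5 genes, and in 15.1% of all 32851 windows of this length. The 250 bases before the start of both genes, both read on the minus strand at chr17:34959239-34959488 (*Hspa1b*) and chr17:34972157-34972406 (*Hspa1a*), are given with the matching letters in capitals.
Hspa1b: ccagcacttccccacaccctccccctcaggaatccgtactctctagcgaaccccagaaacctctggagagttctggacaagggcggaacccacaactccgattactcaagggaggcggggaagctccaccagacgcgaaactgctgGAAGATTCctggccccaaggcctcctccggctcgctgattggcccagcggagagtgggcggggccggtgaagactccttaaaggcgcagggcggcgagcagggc
Hspa1a: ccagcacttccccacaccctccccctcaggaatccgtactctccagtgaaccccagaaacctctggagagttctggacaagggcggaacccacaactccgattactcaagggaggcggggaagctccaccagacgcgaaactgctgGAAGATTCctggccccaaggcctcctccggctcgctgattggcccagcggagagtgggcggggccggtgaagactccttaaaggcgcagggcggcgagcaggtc
These stretches differed at 3 of 250 bases, and the match began 104 bases before the start in both.

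*Dnaja1* (chr4:40722328-40722367, plus strand) held 1 match, which began 124 bases before the start. *Hspb1* held 2 (chr5:135887786-135887825 and chr5:135887806-135887845, plus strand), which began 117 and 97 bases before it. *Hsph1* held 1 before the start (chr5:149636346-149636385, minus strand) and, 36 bases after it (chr5:149636287-149636316), the only stretch of 3 alternating units among the listed genes, which here is 2 overlapping matches. Such stretches of 3 stood in 0.6% of all windows. These stretches are shown to set the elements of the inducible genes beside that of *Dnaja1*.
Dnaja1: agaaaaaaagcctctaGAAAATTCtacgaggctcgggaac
Hspb1: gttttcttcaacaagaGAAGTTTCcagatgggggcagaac
Hspb1 again: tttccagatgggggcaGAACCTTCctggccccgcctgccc
Hsph1 before the start: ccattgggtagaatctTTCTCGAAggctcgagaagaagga
Hsph1 after the start: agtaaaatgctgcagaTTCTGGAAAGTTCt
The windows of *Dnajb1* and *Hspa4* did not hold these letters. A match describes the letters only.

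The deposited values are log2 expression values, in which 1 unit is a doubling, and the medians of the arrays lay between 3.01 and 3.14. Any 2 arrays correlated at 0.994 to 0.999 over all probe sets. A first principal component held 45.9% of the variance within the labelled groups, with wild type replicate 2 and null replicate 5 at its high end (0.46 and 0.56) and wild type replicate 1 at its low end (-0.49). The 3 measured red blood cell markers had group means of at most 2.59. Of 4 choroid plexus markers, *Ttr* lay between 4.99 and 7.84 on the wild type arrays and between 5.08 and 6.75 on the null arrays, and the others had group means of at most 2.47. The difference of 3′ from 5′ probe sets of *Gapdh*, a sign of RNA quality, ran from -0.07 to 0.27, highest in wild type replicate 2, and that of *Actb* from -0.03 to 0.37. Of the cortical excitatory neuron markers, 4 of 8 measured genes had a mean of at least 5. In whole cortex, fewer cells of a type and less RNA in each cell cannot be told apart.

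Chaperone transcripts were compared between the labelled groups to ask whether loss of full-length FE65 went with a shift of the protein folding system. All 22 probe sets overlapped between the labelled groups, 10 with a higher mean on the null arrays and 12 with a lower one. By limma, 0 of 22 passed an adjusted p of 0.05 (adjusted p = 0.999 for each), beside 0.0% of all 22626 probe sets. At an unadjusted p under 0.05 the count was again 0 of 22, beside 3.67% of all probe sets, and the methods' t-test also gave 0. Groups that did not overlap were found for 0.623% of all probe sets. The size of the difference had a median of 0.08 over the members and of 0.08 over the 7827 probe sets with a mean of at least 5. The 95% confidence intervals of the members spanned -0.92 (*Hspa4* 1416147_at) to 0.62 (*Dnajb1* 1416755_at), so that shifts of that size are not excluded for these probe sets. The signs follow the labels as given. *Gprc5b*, the gene at the centre of the study, differed by -1.23 in its most divergent probe set for labelled null minus labelled wild type. For this gene the direction under the labels is opposite to that in the study's tables and in its RT-PCR of null forebrain, and if the labels were turned, every sign given here would turn with them.

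*Dnajb1*, the J protein that works with inducible Hsp70, had the lowest p of the members. Its probe set 1416755_at read 9.79, 9.07, 9.87, 9.77 and 9.59 on the wild type arrays and 9.81, 9.72, 10.07, 10.17 and 9.73 on the null arrays. Wild type replicate 2 was lowest and null replicates 3 and 4 were highest. After group means were removed, this probe set had r = -0.69 with the *Gapdh* measure of RNA quality over the 10 mice (rho -0.64, permutation p = 0.0382 and 0.0488, adjusted p of r 0.644 over 126 relations) and -0.52 without wild type replicates 2 and 4. With the *Actb* measure the same probe set had r = -0.12 (rho -0.14, permutation p = 0.729 and 0.714), and -0.55 without wild type replicate 5 and null replicate 3. The part of RNA quality in the difference was not tested. The difference was 0.28 (SE 0.15, 95% interval -0.05 to 0.62), with an unadjusted limma p of 0.0901 and a two-sided exact permutation p of 0.151 (n = 5 and 5). The other probe set, 1416756_at, lay between 7.27 and 7.97 on the wild type arrays and between 7.23 and 8.07 on the null arrays, a difference of 0.14 (SE 0.18).

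*Hspa1b*, inducible Hsp70, was read by 3 probe sets. Probe set 1427127_x_at read 8.31, 9.10, 8.82, 9.23 and 8.26 on the wild type arrays and 8.89, 8.49, 8.62, 8.86 and 9.37 on the null arrays. The mice fell into no order by label, with null replicate 5 highest and wild type replicate 5 lowest, a 2.16-fold range. The mean was 8.74 ± 0.44 (SD, n = 5) against 8.85 ± 0.34 (n = 5), a difference of 0.11 (SE 0.22, 95% interval -0.38 to 0.59). Probe sets 1452318_a_at and 1427126_at differed by 0.11 (SE 0.19) and 0.01 (SE 0.23). The suffix x_at marks probe sets with probes that may also bind other transcripts, and since the transcripts of *Hspa1a* and *Hspa1b* are so alike, the split of signal between the genes is uncertain.

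*Hspa1a*, the neighbouring inducible Hsp70 gene, was read by probe set 1452388_at. It read 4.95, 5.80, 5.22, 5.35 and 5.33 on the wild type arrays and 5.11, 5.25, 5.08, 5.22 and 5.81 on the null arrays. Wild type replicate 2 and null replicate 5 stood above the other 8 mice. The difference was -0.04 (SE 0.17, 95% interval -0.41 to 0.34).

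*Hsph1* (Hsp110), which releases nucleotide from Hsp70, had 2 probe sets with differences of -0.06 (SE 0.08) and -0.04 (SE 0.12). Its brightest probe set, 1425993_a_at, lay within 11.52 to 11.61 on the wild type arrays and spread from 11.30 to 11.77 on the null arrays. The SD was 0.03 in the former and 0.19 in the latter, a gap that was not tested. *Hsp90aa1*, the inducible form of cytosolic Hsp90, had differences of -0.06 (SE 0.09), 0.07 (SE 0.08) and -0.10 (SE 0.12) over its 3 probe sets. *Hspb1* (Hsp25), a small heat shock protein that holds unfolded proteins without ATP, differed by -0.01 (SE 0.12) in 1422943_a_at and by 0.02 (SE 0.11) in 1425964_x_at. The latter had a mean of 3.02, near the array medians. Of the 13 inducible probe sets, 7 were higher and 6 lower on the null arrays.

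*Hspa8*, constitutive Hsc70, had 4 probe sets that did not run together. The brightest, 1420623_x_at, read 13.55, 13.49, 13.26, 13.53 and 13.48 on the wild type arrays and 13.48, 13.38, 13.55, 13.43 and 13.55 on the null arrays. All mice but wild type replicate 3 lay within a narrow band, and the difference was 0.02 (SE 0.06, 95% interval -0.12 to 0.16). Probe set 1420622_a_at read 10.43, 11.13, 10.81, 10.93 and 11.02 on the wild type arrays and 10.49, 10.49, 10.83, 9.79 and 11.01 on the null arrays. Null replicate 4 was lowest there, and the difference of -0.34 (SE 0.21, 95% interval -0.81 to 0.13) had an exact permutation p of 0.206 (n = 5 and 5). Probe set 1455789_x_at differed by -0.18 (SE 0.11, 95% interval -0.41 to 0.05). Without null replicate 5, 1455789_x_at and 1420622_a_at had unadjusted limma p-values of 0.0417 and 0.0487, beside 0.118 and 0.139 over all arrays. Without wild type replicate 1, 1455789_x_at had 0.0356. When any other single array was left out, no member probe set had an unadjusted limma p under 0.05. The fourth, 1431182_at, had a mean of 3.13 and a difference of 0.07 (SE 0.15).

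*Hspa4*, an Hsp110 relative that also acts as an exchange factor, was lower by mean on the null arrays in all 3 probe sets, with differences of -0.16 (SE 0.14), -0.22 (SE 0.32) and -0.14 (SE 0.17). Probe set 1416147_at read 8.20, 8.81, 8.95, 8.86 and 8.83 on the wild type arrays and 8.88, 7.17, 8.85, 8.77 and 8.88 on the null arrays. A single mouse in each group, wild type replicate 1 and null replicate 2, stood below the rest, and the range over all mice was 3.42-fold. *Dnaja1*, a J protein that serves Hsc70, differed by -0.04 (SE 0.06) in 1460179_at and by 0.08 (SE 0.12) in 1416288_at. Of the 9 constitutive probe sets, 3 were higher and 6 lower on the null arrays.

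**Figure D1:**
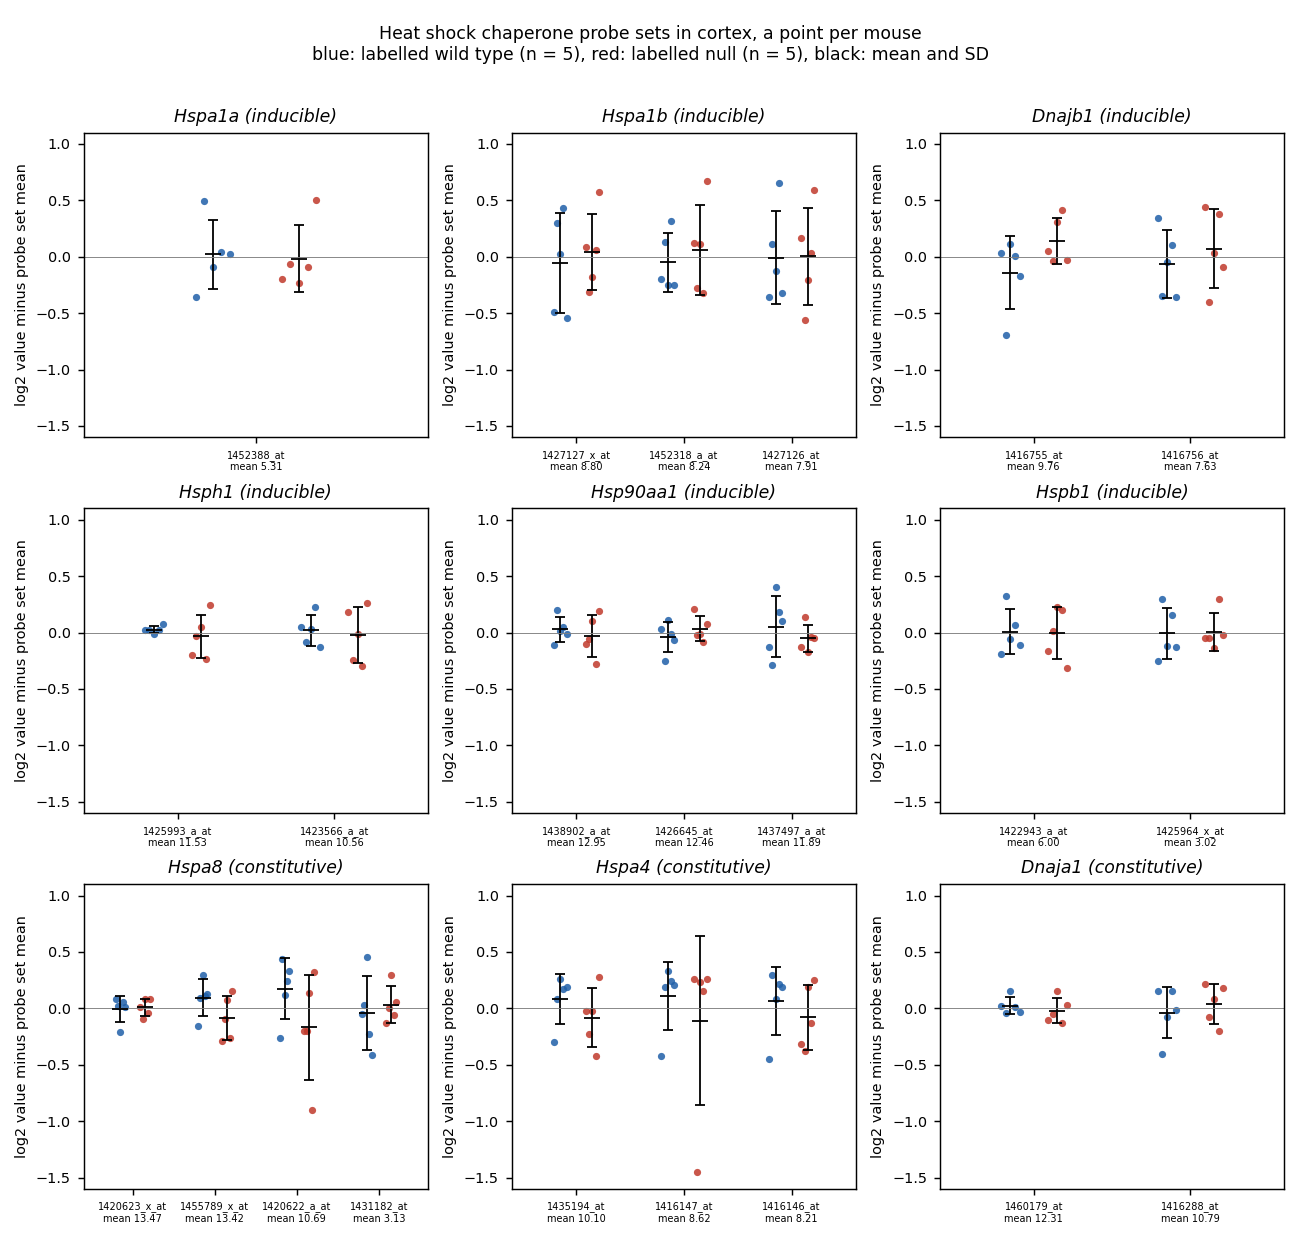
Each panel is 1 gene and each pair of columns 1 probe set, with log2 values of single mice drawn as their distance from the mean of that probe set, wild type labels in blue and null labels in red, and the group mean with its SD in black (n = 5 each). The columns of all 22 probe sets overlap, and null replicate 2 stands far below the others in Hspa4 1416147_at, at 7.17.

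**Figure D2:**
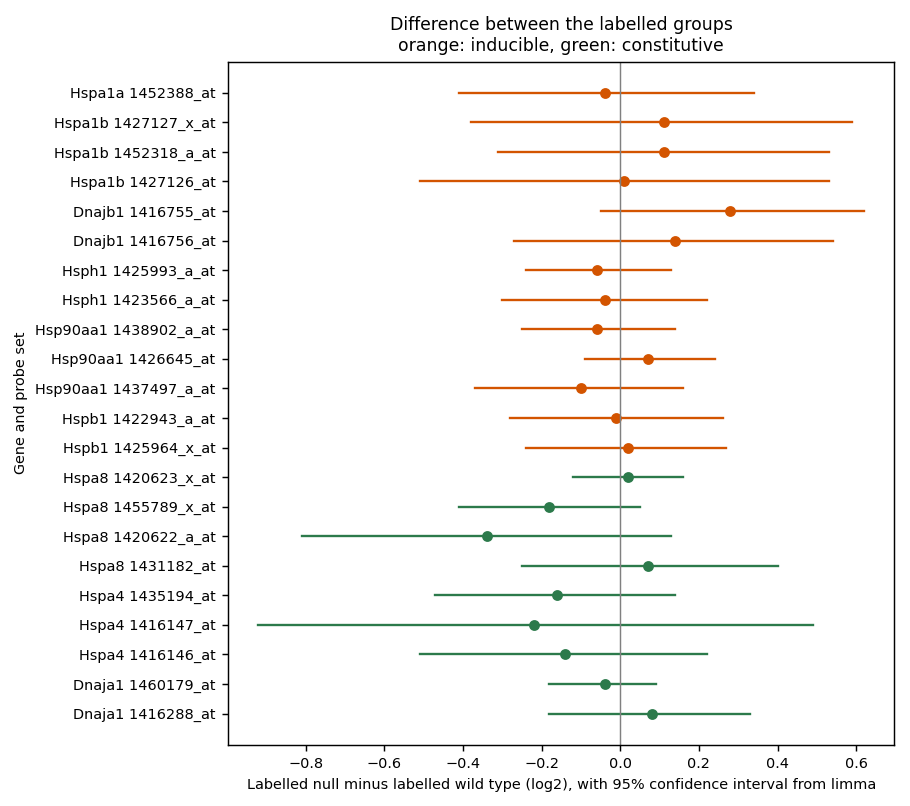
Labelled null minus labelled wild type (log2) for the 22 probe sets, with 95% confidence intervals from limma, inducible genes in orange and constitutive genes in green. Every interval crosses 0, the widest being that of Hspa4 1416147_at, from -0.92 to 0.49.

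To compare inducible with constitutive members within a mouse, the value of *Hspa8* (1420623_x_at) was subtracted from that of *Hspa1b* or *Hspa1a* on the same array, and the labelled groups were compared. For *Hspa1b*, the within-mouse difference lay between -5.24 and -4.30 on the wild type arrays and between -4.93 and -4.18 on the null arrays. The null minus wild type contrast was 0.09 (95% interval -0.49 to 0.66, exact permutation p = 0.706, n = 5 and 5). For *Hspa1a* it was -0.05 (95% interval -0.49 to 0.39, exact permutation p = 0.794), and over both contrasts each adjusted p was 0.794. With the mean of a gene's probe sets in place of the brightest, the contrasts were 0.18 for *Hspa1b* and 0.07 for *Hspa1a* (exact permutation p = 0.373 and 0.683). Only the contrast between groups is read here, since levels of different probe sets are not on 1 scale.

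Mice of the same label spread far apart in some of these genes and lay close together in others. The spread is given as the SD over the 10 mice about their group means, which had a median of 0.18 (log2) over the 7827 probe sets with a mean of at least 5. The 3 probe sets of *Hspa1b* had an SD of 0.39, 0.34 and 0.42, higher than 93.8%, 89.0% and 95.3% of those probe sets. *Dnajb1* had 0.27 and 0.33, and *Hspa1a* had 0.30. At the other end, *Hspa8* 1420623_x_at and *Dnaja1* 1460179_at each had an SD of 0.10, higher than 11.5% and 10.2%. The classes were not cleanly parted, for *Hsph1* (0.14), *Hsp90aa1* (0.15) and *Hspb1* (0.21) of the inducible genes lay below *Hspa4* (0.24) of the constitutive ones. *Hspa4* 1416147_at had 0.57 and *Hspa8* 1420622_a_at had 0.38, higher than 98.8% and 92.9% of probe sets. In the former, 1 null mouse stood far below the others. In the latter, null replicate 4 was lowest, at 9.79 beside 10.49 to 11.01 in the other null mice and 10.43 to 11.13 in the wild type mice. Of the 20 member probe sets with a mean of at least 5, 15 were above the median SD. The median SD of probe sets of like mean was 0.18 to 0.19 for *Hspa1a*, *Hspb1*, *Hspa1b*, *Dnajb1* and *Hspa4*. For the brighter *Hsph1*, *Dnaja1*, *Hsp90aa1* and *Hspa8* it was 0.15, 0.14, 0.13 and 0.11. Among probe sets within 0.5 of the same mean, *Hspa1b* 1427127_x_at was above 94.6% of 1270 in spread. By the brightest probe set in the same way, *Hspa1a* was above 82.2%, *Dnajb1* 79.6%, *Hsp90aa1* 65.2%, *Hspb1* 58.5% and *Hsph1* 40.4% of the inducible genes' neighbours in mean, and *Hspa4* was above 76.8%, *Hspa8* 34.2% and *Dnaja1* 19.8% for the constitutive ones, so that the classes overlapped here too. This is a description, and the classes were not tested against each other.

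**Figure D3:**
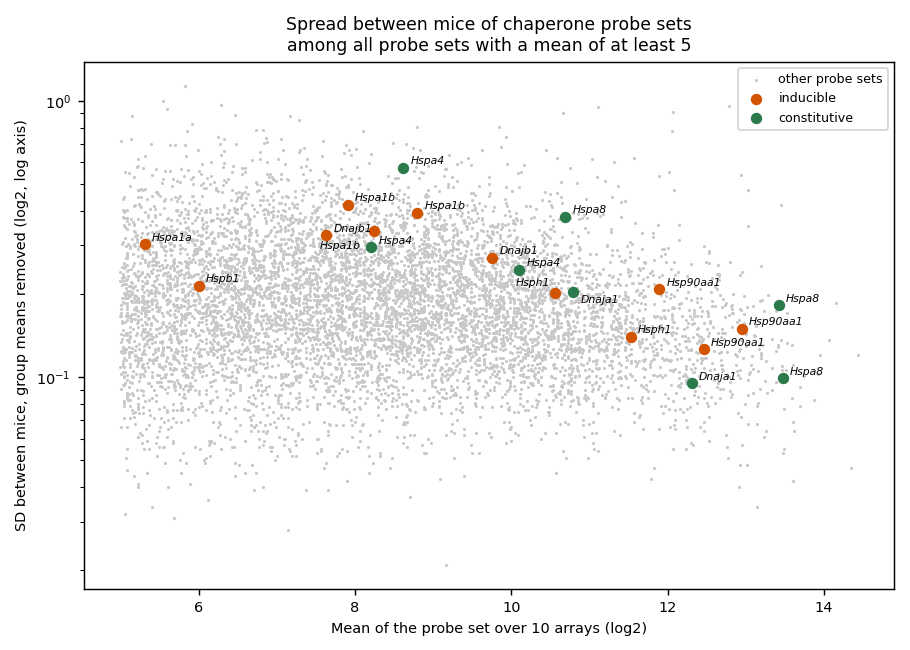
SD between mice about the group means (log2, log axis) against the mean of the probe set over 10 arrays (log2), for the 7827 probe sets with a mean of at least 5, with inducible members in orange and constitutive members in green. Hspa1b lies high at 0.34 to 0.42, while the brightest probe sets of Hspa8 and Dnaja1 lie low at 0.10.

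A spread between mice can be followed across probe sets of the same transcript, which share the RNA of each mouse. The 3 *Hspa1b* probe sets had r of 0.77 to 0.92 with each other. After group means were removed, 1427127_x_at and 1427126_at correlated at r = 0.92 over 10 mice (rho 0.88, permutation p = 0.00014, adjusted p = 0.00308 over 22 comparisons), and at 0.90 without the 2 mice farthest from the median. Each set of *Hspa1b* was highest in wild type replicate 4 and null replicate 5 within its group. Their r with 1452318_a_at was 0.77 and 0.83 (adjusted p = 0.0994 and 0.0657, permutation), and 0.67 and 0.54 without the 2 farthest mice. Of 19 pairs of probe sets within a gene, 15 had an r above 0, and the 1 named first was alone in passing the adjusted threshold. All pairs of probe sets with a mean of at least 5 had a median r of 0.13, and so lay above 0 more often than not.

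*Hsp90aa1* and *Hspa8* gave another picture. The brightest *Hsp90aa1* probe set, 1438902_a_at, had r = -0.16 and -0.23 with the other probe sets of its gene, which between themselves had r = 0.45. Among the *Hspa8* probe sets, 1455789_x_at and 1420622_a_at had r = 0.73 (permutation p = 0.0255, adjusted p = 0.112), whereas the brightest had r = -0.17 and 0.29 with them. Results for these genes therefore hold for the named probe set.

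**Figure D4:**
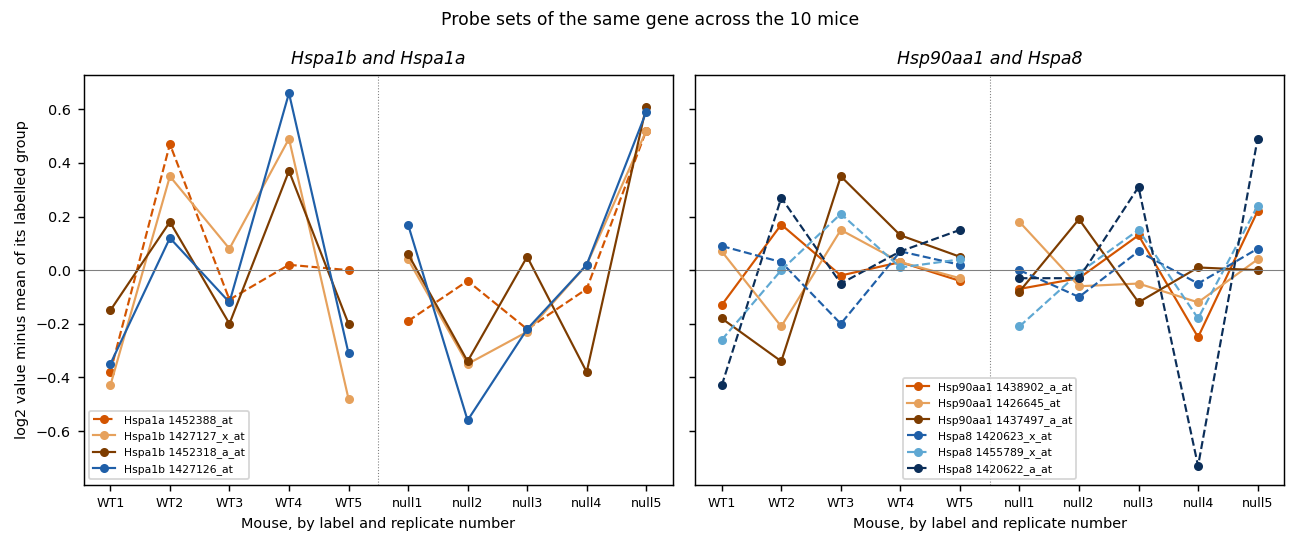
Log2 value minus the mean of its labelled group for the probe sets of Hspa1b with Hspa1a (left) and of Hsp90aa1 with Hspa8 (right, without the dim 1431182_at), with 1 line per probe set and the 10 mice along the axis. The Hspa1b lines rise and dip in the same mice (r = 0.77 to 0.92), while those of Hsp90aa1 do not (r = -0.23 to 0.45).

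Covariation between genes was then measured on the brightest probe set of each, for all 36 pairs of 9 genes. No pair passed an adjusted p of 0.05 (permutation within groups, lowest adjusted p = 0.301), and 5 had an unadjusted p under 0.05, each with an adjusted p of 0.301 for r and of 0.675 for rho. The share of all pairs of probe sets at that unadjusted threshold is not given here, so the count is not read as an excess. *Hsph1* and *Hsp90aa1*, the inducible exchange factor and Hsp90, had r = 0.78 (rho 0.71, permutation p = 0.0341 and 0.0591). *Hsp90aa1* and *Hspa4* had r = 0.74 (rho 0.55, permutation p = 0.0257 and 0.125), and *Hsp90aa1* and *Hspa1a* had 0.69 (rho 0.59, permutation p = 0.0344 and 0.0991). The neighbours *Hspa1a* and *Hspa1b* had r = 0.69 (rho 0.58, permutation p = 0.0417 and 0.107), where the split of signal between their near-identical transcripts is uncertain. *Dnajb1* ran against *Hspa1a*, at r = -0.71 (rho -0.58, permutation p = 0.0365 and 0.110).

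These values were lower without the mice at the ends, an omission that also narrows the range. Without the 2 mice farthest from the median of the first gene, r was 0.40 for *Hsph1* with *Hsp90aa1* and 0.42 for *Hsp90aa1* with *Hspa4* (without null replicates 4 and 5). Without wild type replicate 2 and null replicate 5, it was 0.09 for *Hspa1a* with *Hsp90aa1*, 0.37 for *Hspa1a* with *Hspa1b* and -0.22 for *Hspa1a* with *Dnajb1*. When single arrays were left out instead, *Hsph1* with *Hsp90aa1* had r from 0.65 to 0.88 and *Hsp90aa1* with *Hspa4* from 0.61 to 0.83. Without wild type replicate 2 and null replicate 5, these pairs had 0.79 and 0.72. With the mean of a gene's probe sets in place of the brightest, r was 0.03 for *Hspa1a* with *Hsp90aa1*, 0.27 for *Hsp90aa1* with *Hspa4* and 0.53 for *Hsph1* with *Hsp90aa1*, but 0.65 for *Hspa1a* with *Hspa1b* and -0.69 for *Hspa1a* with *Dnajb1*. *Hsp90aa1* and *Hspb1*, picked after the values were seen, went the other way, from 0.03 over all mice to 0.98 without null replicates 4 and 5.

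By class, the median r was 0.07 for the 15 pairs of inducible genes (from -0.71 to 0.78), 0.24 for the 18 mixed pairs (from -0.29 to 0.74) and 0.01 for the 3 pairs of constitutive genes (from -0.06 to 0.43). Over all 36 pairs, 22 were above 0, and the size of r had a median of 0.32, beside 0.34 for all pairs of probe sets with a mean of at least 5. An r of 0.7 or more in size was reached by 3 of 36 member pairs and by 10.47% of all such pairs. The median r with its sign was 0.10 over the member pairs and 0.13 over all such pairs.

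The first component, to which the members themselves contribute, moved with several of them. It had r = 0.89 with *Hsp90aa1*, 0.87 with *Hspa1a*, 0.72 with *Hspa4*, 0.71 with *Hsph1*, 0.58 with *Hspa1b* and -0.58 with *Dnajb1*, but 0.05 with *Hspa8* (permutation, no adjusted p under 0.05 over the 126 relations of 9 genes with measures of the arrays). Without wild type replicate 1 and null replicate 5, r was 0.84 for *Hsp90aa1*, 0.71 for *Hspa1a*, 0.66 for *Hsph1*, 0.35 for *Hspa4*, 0.23 for *Hspa1b* and -0.55 for *Dnajb1*. The rho over all mice was 0.93 for *Hsp90aa1*, 0.59 for *Hspa1a*, 0.66 for *Hsph1*, 0.49 for *Hspa4*, 0.56 for *Hspa1b* and -0.36 for *Dnajb1*. Of all probe sets with a mean of at least 5, 32.0% had an r over 0.7 in size with it. With this component removed, r was 0.48 for *Hsph1* with *Hsp90aa1*, 0.32 for *Hsp90aa1* with *Hspa4*, -0.39 for *Hspa1a* with *Hsp90aa1*, 0.46 for *Hspa1a* with *Hspa1b* and -0.51 for *Hspa1a* with *Dnajb1*.

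Some markers of cell types and of stress moved with *Hspa1b* between mice as well, without an adjusted p under 0.05 (permutation). It had r = 0.82 with the mean of the cortical excitatory neuron markers (rho 0.76, permutation p = 0.00461 and 0.0287) and 0.76 without wild type replicates 1 and 4. *Hspa1a* had r = 0.63 with these markers (rho 0.82). With the other cell type markers, *Hspa1b* had r = 0.47 (astrocyte), 0.46 (microglia), 0.45 (oligodendrocyte), 0.31 (red blood cell), 0.22 (striatal), 0.02 (endothelial) and -0.19 (choroid plexus). With the mean of the endoplasmic reticulum stress genes, *Hspa1b* had r = 0.81 (rho 0.70, permutation p = 0.0104 and 0.0658) and 0.64 without wild type replicate 4 and null replicate 5. The adjusted p of r was 0.290 and 0.329 over the 126 relations, the former, with that of *Hsp90aa1* and the first component, being the lowest. With the means of the immediate early and the glucocorticoid-induced genes, *Hspa1b* had r = 0.32 and 0.07. The part of the cell mixture in the spread of *Hspa1b* was not tested.

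**Figure D5:**
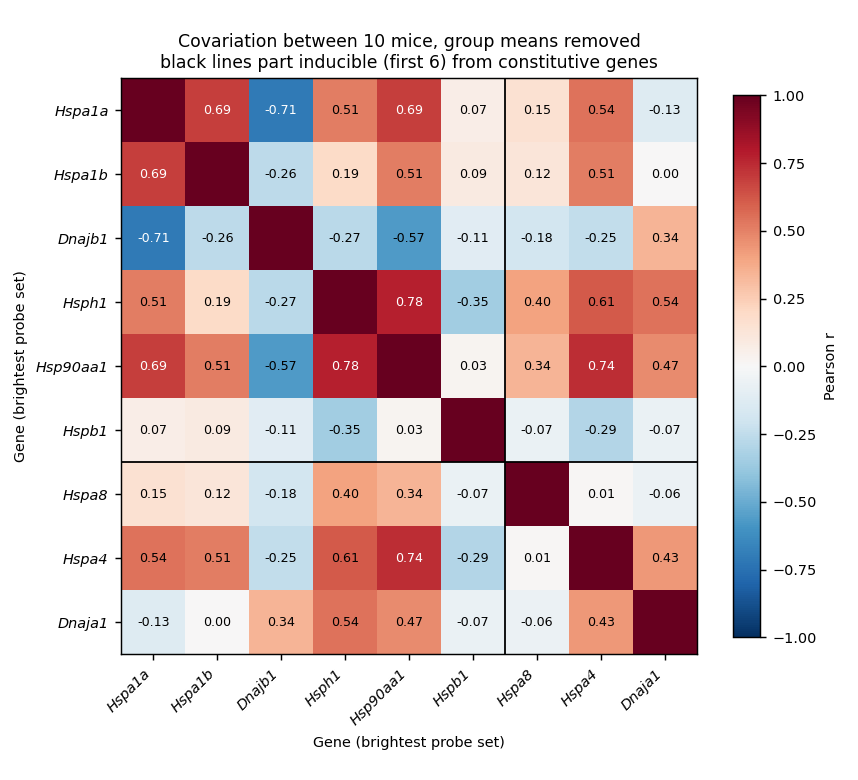
Pearson r over 10 mice between the brightest probe sets of the 9 genes after group means were removed, red for r above 0 and blue for r below 0, with the 6 inducible genes first and black lines before the 3 constitutive ones. The deepest colours off the diagonal are Hsph1 with Hsp90aa1 (0.78), Hsp90aa1 with Hspa4 (0.74) and Hspa1a with Dnajb1 (-0.71).

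The genes outside the list whose pattern over the 10 mice was most like a member are given as a description, among 7134 probe sets of 1 gene with a mean of at least 5. Nearest to *Hspa1b* were *Usp9x* (r = 0.98), *Atp6v1b2* (0.97), *Scarb2* (0.96), *Serf2* (0.96) and *H2az2* (0.95), and 3.06% of probe sets had r of at least 0.8. *Hsp90aa1* had 10.95% at that level, led by *Metap2* (0.97), *Ivns1abp* (0.97), *Ythdf3* (0.97), *Gabbr1* (0.96) and *Caap1* (0.96). *Hsph1* had 5.05%, led by *Noct* (0.97), *Ndn* (0.97), *Med20* (0.95), *Copa* (0.94) and *Zyg11b* (0.94). *Hspa8* had 0.28%, led by *Agap1* (0.92), *Atg14* (0.90), *Tnks2* (0.88), *Timm10* (0.88) and *Rnf146* (0.87). All points share the array of each mouse, so part of such likeness can be common to the array.

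The rest of the folding and stress system was read from 10 further lists with 102 measured genes, each by its brightest probe set. No gene passed an adjusted p of 0.05 by limma. At an unadjusted p under 0.05, 0 were higher and 2 lower on the null arrays, 1.96% of the genes beside 3.94% of all 12393 genes, of which 165 were higher and 323 lower. Both were J proteins. *Dnajb9*, which serves the Hsp70 of the endoplasmic reticulum and counts under that list too, was 10.39 ± 0.09 (SD, n = 5) on wild type and 10.21 ± 0.12 (n = 5) on null arrays, a difference of -0.18 (SE 0.06, limma adjusted p = 0.999). *Dnajc5*, the J protein of synaptic vesicles, was 10.94 ± 0.08 against 10.80 ± 0.08, a difference of -0.14 (SE 0.05).

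None of the 4 measured heat shock factors and regulators, 8 other Hsp70 genes, 11 exchange factors and cochaperones, 10 genes of the Hsp90 group, 5 small heat shock proteins, 10 chaperonins, 15 immediate early genes or 13 glucocorticoid-induced genes passed the unadjusted threshold. Of 17 other J proteins 2 did, and of 17 genes of endoplasmic reticulum stress 1 did. The median difference ran from -0.07 in the other J proteins to 0.06 in the exchange factors. The heat shock factors measured, *Hsf2* and *Hsf4*, had group means of at most 2.40, below the array medians, so their values can show little. A mean of at least 5 was reached by 2 of the 4 factors and regulators and by 1 of the 5 small heat shock proteins.

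Cell type markers gave the setting of these values. Of 8 oligodendrocyte markers, 3 were lower on the null arrays at an unadjusted p under 0.05, beside 323 lower of all 12393 genes. The differences were -0.52 (SE 0.22) for *Cldn11*, -0.23 (SE 0.07) for *Mbp* and -0.18 (SE 0.08) for *Olig2*. The last is dim, with group means of 3.58 and 3.40. All of the list but *Olig1* (0.05, SE 0.11) were lower by mean, with a median difference of -0.18. The mean over the list lay between 8.84 and 9.37 on wild type arrays and between 8.64 and 9.05 on null arrays. Of 8 astrocyte markers, *S100b* alone was lower at that threshold, with a difference of -0.25 (SE 0.10). *Aqp4*, *Gfap*, *Aldoc* and *Aldh1l1* were higher by mean (0.16, 0.11, 0.06 and 0.02) and the others lower. The median difference of the astrocyte list was -0.01. No marker passed an adjusted p of 0.05 by limma, and none of the microglial (8), endothelial (7), striatal (5) or excitatory neuron (8) markers passed the unadjusted one. Their part in the differences of the chaperones was not tested.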

How the data were processed

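RNA of 10 cortices was hybridised to Affymetrix GeneChip mouse arrays. The authors deposited log2 expression values made with GC-RMA, in which background is estimated from the GC content of probes before normalization and summary by probe set. The version of GC-RMA is not stated. The members and lists were chosen with earlier results of these data known.

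Control probe sets (64) were left out, leaving 22626. The platform annotation named 1 gene for 20380, several for 691 and none for 1555, and 20351 names were matched to RefSeq (GRCm38.p6). The difference between labelled groups (null minus wild type) came from limma 3.58.1 under R 4.3.3 (lmFit, then eBayes, no pairing, Benjamini-Hochberg over all probe sets, threshold 0.05), after the fit was tested on simulated data. Member probe sets also had two-sided exact permutation tests, whose smallest possible p is 0.00794. The spread was also set against probe sets of like mean, a choice made after seeing the data. Correlations used values minus group means, with 100000 permutations of mice within groups. Python 3.11.15, NumPy 2.4.6, SciPy 1.17.1 and pandas 2.3.3 were used. A gene was represented by its brightest probe set. All members are named, and of other lists up to 4 genes with an unadjusted p under 0.05, and for 4 members the 5 genes most like them. Each mouse is 1 array, and the number of arrays limits precision, as does low signal for dim probe sets. The alternatives were a replicate block, median centring, quantile normalization, dropping dim probe sets (mean below 5), flooring values at 4, array weights, an intensity trend with robust prior, the methods' t-test, the mean of a gene's probe sets, group means kept, the first component removed, and leaving out each array. Leaving out wild type replicate 2 and null replicate 5 together was chosen after seeing the data. Comparing *Hsp90aa1* with *Hsp90ab1* was planned but could not be run without a named probe set of the latter. Other assays of the study were not analysed here.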

Additional observations from a re-analysis of the deposited data

Results flagged for a closer look

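Of 44 groups of 5 arrays (22 probe sets in both labelled groups), 5 held a mouse far from the other 4 by Dixon's ratio. The nominal rate of this rule is about 1 in 20 independent groups. These groups share the same mice and hold several probe sets of a gene, so they are not independent. The share flagged over all probe sets is not given here, so the count is not read as an excess. *Hspa1a* 1452388_at was 5.81 in null replicate 5, above 5.08 to 5.25 in the other null mice. *Hspb1* 1425964_x_at was 3.32 in null replicate 4, above the other null mice. *Hspa8* 1420623_x_at was 13.26 in wild type replicate 3, below 13.48 to 13.55. *Hspa4* 1416147_at was 8.20 in wild type replicate 1, below 8.81 to 8.95, and 7.17 in null replicate 2, below 8.77 to 8.88. In the latter mouse the other *Hspa4* probe sets, 1435194_at and 1416146_at, read 9.87 and 7.83, within the range of the other null mice for the first and just under it for the second.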

How the results depend on the processing

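Under every alternative run, 0 of 22 member probe sets and 0 of 36 gene pairs passed an adjusted p of 0.05. Member probe sets at an unadjusted p under 0.05 numbered 2 with the replicate block and 0 to 2 when an array was left out (1 without wild type replicate 1, 2 without null replicate 5). Array weights turned *Hspa1b* to -0.01 and *Hspb1* to 0.07, quantile normalization turned *Hspb1* to 0.04, and leaving out wild type replicate 2 with null replicate 5 turned it to 0.14. When an array was left out, differences ran from -0.02 to 0.23 (*Hspa1b*), -0.17 to 0.08 (*Hspa1a*), -0.07 to 0.07 (*Hspb1*), -0.11 to 0.01 (*Hsp90aa1*), -0.03 to 0.04 (*Hspa8*), -0.04 to 0.19 (*Hspa1b* minus *Hspa8*) and -0.17 to 0.06 (*Hspa1a* minus *Hspa8*, which was 0.07 with the mean of probe sets); these had no call to lose. *Dnajb1*, *Hsph1*, *Hspa4* and *Dnaja1* kept their sign throughout in their brightest probe sets. The other probe set of *Dnaja1*, 1416288_at, had the opposite sign over all arrays (0.08). With the first component removed, *Hspa1a* with *Hsp90aa1* had r = -0.39. The median SD of the inducible genes was 0.18 to 0.26 when an array was left out, and that of the constitutive genes 0.16 with the mean of probe sets and 0.09 to 0.11 when an array was left out. Further list genes at an unadjusted p under 0.05 numbered 3 higher and 1 lower after quantile normalization, 1 lower without dim probe sets, 2 higher without wild type replicate 2 and null replicate 5, and 0 to 4 higher and 1 to 4 lower when an array was left out. The shares of all probe sets and of all genes under each alternative are not given here. These counts of member probe sets and list genes therefore have no background and are not read as results. The causes were not tested.

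Same-numbered arrays correlated at 0.54, 0.07, 0.10, 0.22 and 0.10 in their deviations, and 2 of 10 arrays correlated best with their own number, so the numbers were not taken as pairs. With the replicate block, *Dnajb1* 1416755_at (0.28) and *Hspa8* 1455789_x_at (-0.18) had unadjusted limma p-values of 0.0196 and 0.0264, and 2 of 36 gene pairs had an unadjusted p under 0.05 in place of 5. The counts of gene pairs have no background here either.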
